A study of Mus musculus with 6 samples.

Results

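The genes of collagens, laminins, nidogens and integrins form the main fibres and sheets of the extracellular matrix and the receptors that hold cells to them. They were taken by symbol, as every gene whose symbol starts like a collagen alpha chain, a laminin alpha, beta or gamma chain, nidogen 1 or 2, or an integrin alpha or beta chain, from probe sets that name exactly 1 gene. The rule found 83 genes among 18193 with such a probe set, spread over 170 probe sets, and for each gene the brightest probe set over the 6 arrays, by mean, was used. By family there were 42 collagen chains, 10 laminin chains, 2 nidogens and 25 integrin chains. The remaining 4 share only the start of the symbol and are no chains (Itgb1bp1, Itgb1bp2, Itgb3bp and Itgbl1). Values are log2 signals of Affymetrix Mouse Genome 430 2.0 arrays as the authors deposited them, and every difference is a log2 difference, the GFP positive mean less the GFP negative mean.

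The study measured total RNA of mouse neural stem cells labelled positive or negative for Spot14 GFP, a green fluorescent protein signal named after Spot14, the product of Thrsp. There were 3 arrays per group, which the series' own text calls biological replicates, and the title places the work in adult neural stem cells and lipogenesis by fatty acid synthase. No agent or time point is labelled, and the strain, age, sex and culture of the cells, what drives the GFP and how positive cells were separated are details not given in the sources used here. Asked here is whether matrix chains and the receptors that bind them differ between both kinds of cell.

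As background, laminins are cross-shaped trimers of an alpha, a beta and a gamma chain that polymerise into the first sheet of a basement membrane. Type IV collagen forms a separate network, nidogens link the laminin gamma chain to it, and other collagens form fibrils or bind at their surface. Cells grip these sheets with integrins, pairs of an alpha and a beta chain in which the alpha chain largely sets the ligand. In the adult subventricular zone, neural stem cells contact vascular basement membrane and extensions of it rich in laminin, and laminin receptors with the alpha 6 and beta 1 chains are known to hold them there.

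The arrays were alike in overall signal, with median log2 values of 3.55 to 3.66 and 47.4% to 48.2% of probe sets at log2 4 or more. Correlations across genes, which are not independent replicates, were 0.985 to 0.993 among the GFP positive arrays, 0.952 to 0.982 among the GFP negative ones and 0.935 to 0.972 across the groups. GFP negative replicate 3 stood apart: it was the highest or lowest of the 6 arrays for 62.9% of the tested members and for 60.3% of all tested genes. The median SD within a group was 0.21 in GFP positive and 0.52 in GFP negative arrays over tested members, against 0.17 and 0.36 over all tested genes. The excess of 3′ over 5′ signal of the control transcripts, a sign of RNA integrity, was 1.51 to 1.82 on 5 arrays and 2.49 on GFP negative replicate 2. Thrsp read 14.32, 14.20 and 14.13 in GFP positive and 13.58, 13.41 and 13.71 in GFP negative arrays, higher in all GFP positive arrays without passing the test (limma adjusted p = 0.0893). Of 10 neural stem cell markers 9 were above the floor of log2 4, and Prom1 was below it on all arrays. Of these 9 markers 1 passed the test (11.1%, against 4.46% of all genes tested). It was Nr2e1, a nuclear receptor that maintains neural stem cells, which rose by 0.86 (limma adjusted p = 0.0308, and up to 0.150 with 1 array left out). GFP positive arrays were all higher, without overlap, for 6 of the 9 (66.7%). Over all genes tested that share was 13.8%, and 25.3% in either direction. Nes differed by −0.49 (limma adjusted p = 0.364). Their part in the members' differences was not tested.

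Many members were too dim to measure here. The test took genes that read log2 4 or more on 3 or more arrays, whichever their group, and 35 of the 83 members did so. Of the other 48, 45 lay under log2 4 on all 6 arrays, at 1.99 to 3.82, where the background correction leaves no usable differences. The remaining 3 reached it on 1 array each: Col12a1 at 4.01 on GFP negative replicate 1, and Lama1 at 4.17 and Itga9 at 4.43 on GFP negative replicate 3. Among the members under log2 4 on all arrays were Col1a2 and Col3a1, partners of Col1a1 in fibrils of connective tissue, Lama2 and Lama3, the collagen receptor Itga2, Itgb4 of hemidesmosomes, and the integrin chains largely restricted to leukocytes (Itgae, Itgal, Itgam, Itgax, Itgb2, Itgb2l and Itgb7).

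Nid1 rose and Itga4 fell in GFP positive cells, and Col18a1 and Lama4, above the floor in GFP negative arrays alone, were lower. These 4 members passed the test, limma's moderated test with Benjamini-Hochberg adjustment over 10531 genes at an adjusted p under 0.05, which is 11.4% of the 35 tested members against 4.46% of all genes tested (2.35% higher and 2.11% lower). Of the members 17 had a positive and 18 a negative difference, with a median of −0.02, against 0.0049 over all genes tested. A difference of 1 or more, in either direction, was seen for 7 members (20%, against 7.04% of all genes tested). The groups did not overlap for 5 members on the higher side (all genes 13.8%) and 6 on the lower side (all genes 11.5%), which is 31.4% of members and 25.3% of all genes tested. At an unadjusted p under 0.05 there were 9 members, 25.7% against 18.2%. Col18a1 and Lama4 passed the filter on dim genes through the GFP negative arrays alone and so had to differ between the groups, and neither they nor the counts that hold them support a shift of the families. Nid1 was above the floor on all arrays. Itga4 reached the floor on 2 GFP positive and 3 GFP negative arrays. The GFP negative arrays thus sufficed to admit Itga4, and it did not pass with no filter on dim genes.

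**Figure D1:**
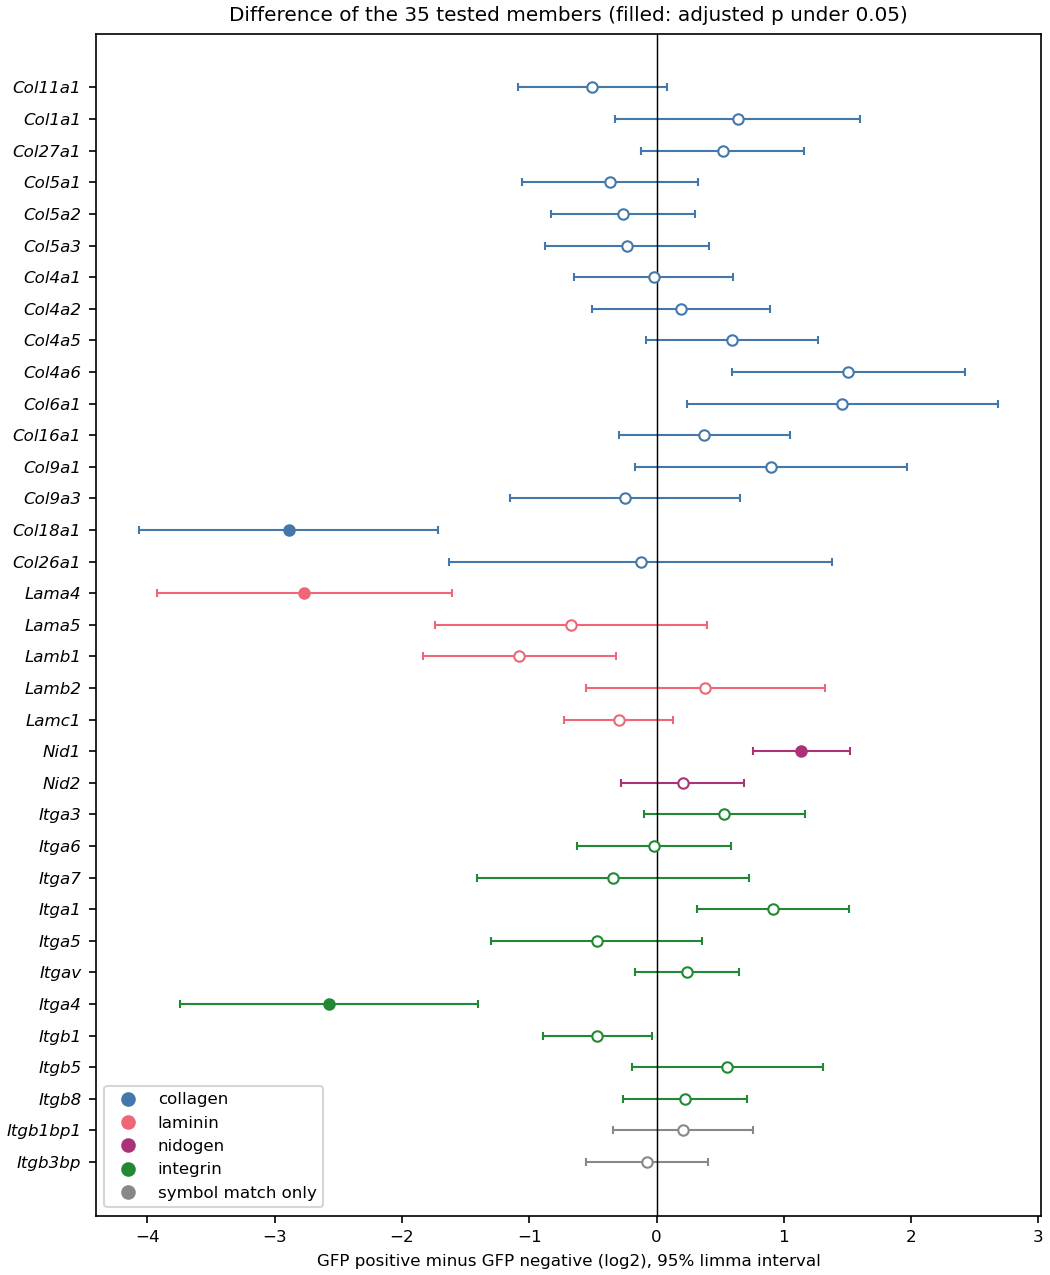
Difference between GFP positive and GFP negative cells for each of the 35 tested members, in log2 units on the x axis, ordered by family and role, with 95% limma intervals as bars and filled points for an adjusted p under 0.05 (n = 3 arrays per group). Nid1 lies at 1.14 on the higher side, while Col18a1, Lama4 and Itga4 lie between −2.89 and −2.57; most intervals of the other members cross 0.

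Among the laminins the alpha 4 chain passed the test as lower and the other 4 tested chains did not pass. Of the 5 differences 4 were negative, with a median of −0.67, and the chain that passed is 20% of them, against 4.46% of all genes tested. Lama4, the alpha chain of laminins known from vessels and adipose tissue, read 2.79, 3.20 and 2.70 in GFP positive and 4.46, 6.01 and 6.52 in GFP negative arrays. No GFP positive array reached the floor and all 3 GFP negative arrays did, without overlap. The difference was −2.77 (SE 0.49, 95% interval −3.92 to −1.61, limma adjusted p = 0.0290), and the adjusted p was 0.103 with no filter on dim genes, where it did not pass. Because every GFP positive array was under the floor, only a bound can be given: set against the GFP negative mean of 5.66 ± 1.07 (SD, n = 3), Lama4 was at least 3.17-fold lower, with the floor as the GFP positive level. Lama4 entered the test through the GFP negative arrays alone, so its p is tied to that choice. The second Lama4 probe set was under the floor on all arrays.

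Lamb1, the beta chain that pairs with alpha 4 and alpha 5, read 8.25, 8.60 and 8.26 in GFP positive and 8.84, 9.39 and 10.10 in GFP negative arrays. Every GFP positive array was below every GFP negative one, yet the difference of −1.08 (SE 0.32) did not pass (limma adjusted p = 0.123). The 3 Lamb1 probe sets above the floor gave −1.08, −0.95 and −0.90. Lama5, the alpha chain of the most widespread adult basement membranes, read 8.72, 8.79 and 8.48 against 8.40, 9.24 and 10.38. The GFP negative arrays thus spread to both sides of the GFP positive ones, and the difference of −0.67 did not pass (limma adjusted p = 0.522).

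Lamb2, the alternative beta chain known from synaptic and vascular basement membranes, read 10.55, 10.68 and 10.54 in GFP positive and 9.45, 10.01 and 11.15 in GFP negative arrays. GFP negative replicate 3 was the highest of all arrays and the other GFP negative arrays the lowest, so the difference of 0.38 did not pass (limma adjusted p = 0.698). Without that array it was 0.86 and passed (limma adjusted p = 0.0441), and without GFP negative replicate 1 it was 0.0069 (0.993). Lamc1, the gamma chain of nearly all laminins and the docking site of nidogen, differed by −0.30 (95% interval −0.73 to 0.13, limma adjusted p = 0.471), with an SD of 0.19 and 0.14. The gamma chain that the trimers share thus showed a 1.23-fold difference that did not pass, beside Nid1, which rose.

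Nid1, the linker between laminin and collagen IV, had the smallest limma p of the 35 tested members. It read 10.54, 10.57 and 10.73 in GFP positive and 9.53, 9.49 and 9.42 in GFP negative arrays. The groups were 10.62 ± 0.10 and 9.48 ± 0.05 (SD, n = 3 each), far above background and without overlap. The difference of 1.14 (SE 0.16, 95% interval 0.75 to 1.52) was 2.20-fold (limma adjusted p = 0.0159). GFP negative replicate 3, apart in other members, lay with its group here. A further Nid1 probe set near background was also higher in all GFP positive arrays (2.96 to 4.01 against 2.64 to 2.75), and the third, under the floor on all arrays, overlapped. Nid2, the second nidogen, read 5.07, 4.99 and 5.42 against 4.69, 5.06 and 5.10, a difference of 0.21 (95% interval −0.28 to 0.69) that did not pass (limma adjusted p = 0.684); the difference between the nidogens was not tested.

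**Figure D2:**
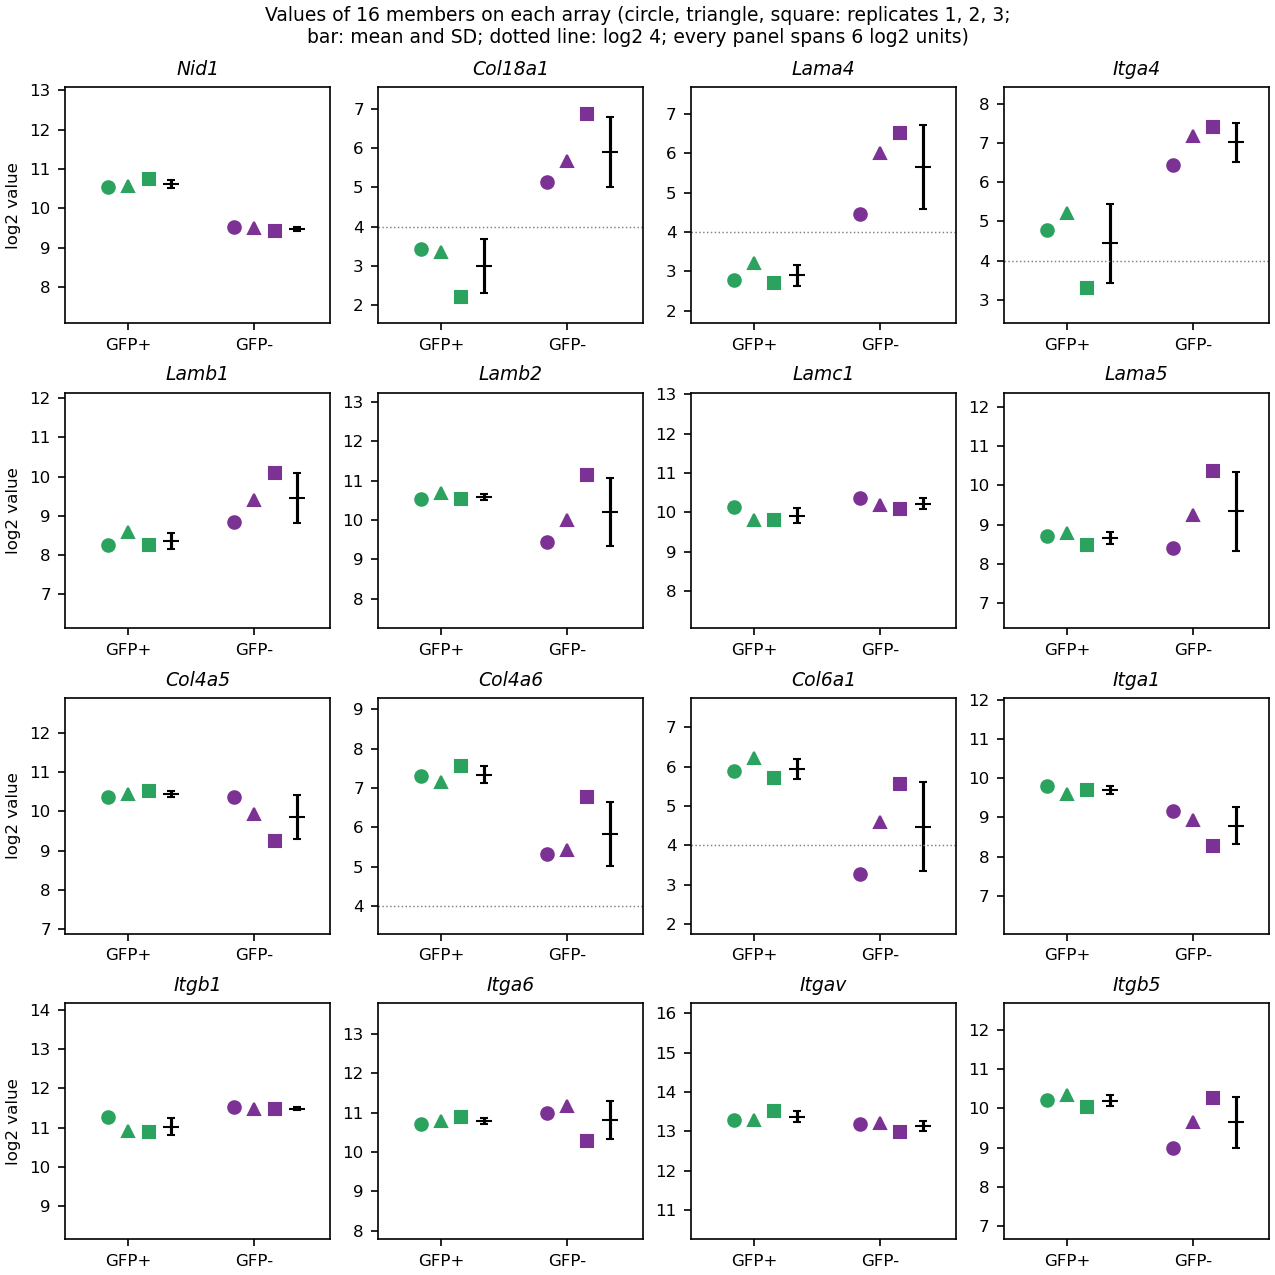
Log2 values of 16 members on each array, GFP positive in green and GFP negative in purple, with circles, triangles and squares for replicates 1, 2 and 3 and black bars for mean and SD (n = 3); every panel spans the same number of log2 units. Nid1 separates the groups with little spread, Col18a1, Lama4 and Itga4 are near or under the dotted log2 4 line in GFP positive cells, and in Lamb2 and Lama5 the square of GFP negative replicate 3 is the highest GFP negative point.

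Of the 16 tested collagen chains 1 passed as lower, Col18a1, and none as higher, which is 6.25% against 4.46% of all genes tested. Of the differences 8 were positive and 8 negative, with a median of 0.08. Before adjustment, 2 of the chains were higher and 1 lower at a limma p under 0.05, which is 18.8% against 18.2% of all genes tested. Col18a1, a basement membrane collagen with heparan sulfate chains whose C-terminal fragment is endostatin, read 3.44, 3.35 and 2.21 in GFP positive and 5.14, 5.66 and 6.87 in GFP negative arrays. As with Lama4, no GFP positive array reached the floor and all GFP negative arrays did. The difference was −2.89 (SE 0.50, 95% interval −4.07 to −1.71, limma adjusted p = 0.0265), and the adjusted p was 0.0971 with no filter, where it did not pass. Set against the GFP negative mean of 5.89 ± 0.89 (SD, n = 3) it was at least 3.71-fold lower, with the floor as the GFP positive level, and the p is tied to the filter as for Lama4. Its other probe set was near background on 5 arrays and read 4.96 on GFP negative replicate 3.

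The tested type IV chains did not pass, and the chain furthest from 0 was Col4a6. Col4a6, which assembles with Col4a5 in a minority of basement membranes, read 7.30, 7.15 and 7.56 in GFP positive and 5.31, 5.41 and 6.78 in GFP negative arrays. The groups did not overlap and the difference was 1.51 (SE 0.39, 95% interval 0.59 to 2.42), 2.84-fold, but the limma adjusted p was 0.0837. GFP negative replicate 3 was the highest of its group; leaving it out gave a difference of 1.98, which passed (limma adjusted p = 0.00504); with any other array left out it was at least 1.24 and did not pass (adjusted p up to 0.283). A second, dim Col4a6 probe set ran the same way, 3.70 to 4.17 against 2.53 to 3.68.

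Col4a5 read 10.36, 10.44 and 10.51 against 10.37, 9.92 and 9.25, a difference of 0.59 in the same direction that did not pass (limma adjusted p = 0.345). Col4a1 and Col4a2, the chains of the ubiquitous network, differed by −0.02 (95% interval −0.64 to 0.60) and 0.19 (−0.51 to 0.89) and did not pass. The sign of Col4a1 depends on the setting: it was 0.04 with the arrays set to a common median and 0.41 at its other probe set. Col4a3 and Col4a4 were under log2 4 on all arrays.

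Outside type IV the remaining collagens did not pass. Col6a1, a chain of the beaded microfibrils, read 5.88, 6.21 and 5.72 in GFP positive and 3.28, 4.59 and 5.56 in GFP negative arrays. All GFP positive values were higher, but the GFP negative arrays spread by 1.14 (SD) and the difference of 1.46 had a limma adjusted p of 0.189. Leaving out GFP negative replicate 3 gave 2.00, which passed (limma adjusted p = 0.0255), and leaving out GFP negative replicate 1 gave 0.86 (0.228). The partner chains Col6a2 and Col6a3 were under log2 4 on all arrays. The 6 tested fibrillar chains ran from −0.50 for Col11a1 to 0.64 for Col1a1, with a median of −0.25. Col11a1 read 8.47, 8.78 and 8.74 against 8.95, 8.89 and 9.66, without overlap (limma adjusted p = 0.354). Col5a2, which with the alpha 1 chain of type V sets fibril width, differed by −0.26 (limma adjusted p = 0.656). Col9a1, Col16a1 and Col9a3, which associate with fibrils, differed by 0.90, 0.38 and −0.25 (limma adjusted p = 0.365, 0.580 and 0.813), and Col26a1, dim in both groups, by −0.12 (0.952). Col9a1 read 3.85 on GFP negative replicate 1, under the floor. Another Col9a3 probe set that passed the filter on dim genes differed by −1.14, with overlapping groups.

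Sequence before the gene starts is shown for the members that passed the test and have an entry in the RefSeq table used (assembly GRCm38.p6), and for Col4a5 and Col4a6, neighbours in the genome whose differences were both positive. The annotated starts of Col4a1 and Col4a2 are 21 bases apart on opposite strands, and those of Col4a5 and Col4a6 are 1343 bases apart on opposite strands. Of the 35 tested members 26 had an entry, and of the 4 that passed 3 did; Lama4 is named only. Each line gives the 250 bases before an annotated start, 5′ to 3′ on the gene's strand; Col18a1 has 2 annotated starts. Capitals mark matches, on either strand, to the TATA box (spelled TATAAA), the CCAAT box (by those letters), the GC box (spelled GGGCGG) or an E-box (spelled CACGTG), none of which contains another.
Nid1 chr13:13437352-13437601, forward strand: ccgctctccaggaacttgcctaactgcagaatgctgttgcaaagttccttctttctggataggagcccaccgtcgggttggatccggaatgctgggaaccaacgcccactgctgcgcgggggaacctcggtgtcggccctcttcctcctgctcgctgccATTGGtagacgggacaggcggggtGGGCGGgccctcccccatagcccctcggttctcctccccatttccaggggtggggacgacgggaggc
Col18a1 chr10:77166531-77166780, reverse strand: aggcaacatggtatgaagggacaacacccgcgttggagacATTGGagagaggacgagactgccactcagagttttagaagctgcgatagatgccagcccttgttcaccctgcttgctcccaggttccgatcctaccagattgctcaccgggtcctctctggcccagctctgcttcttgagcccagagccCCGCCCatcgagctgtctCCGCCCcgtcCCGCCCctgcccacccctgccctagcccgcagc
Col18a1 chr10:77113706-77113955, reverse strand: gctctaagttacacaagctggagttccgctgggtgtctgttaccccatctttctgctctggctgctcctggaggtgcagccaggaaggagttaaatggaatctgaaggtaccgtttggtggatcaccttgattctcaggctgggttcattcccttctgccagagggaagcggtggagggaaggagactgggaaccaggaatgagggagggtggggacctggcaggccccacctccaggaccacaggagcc
Itga4 chr2:79255176-79255425, forward strand: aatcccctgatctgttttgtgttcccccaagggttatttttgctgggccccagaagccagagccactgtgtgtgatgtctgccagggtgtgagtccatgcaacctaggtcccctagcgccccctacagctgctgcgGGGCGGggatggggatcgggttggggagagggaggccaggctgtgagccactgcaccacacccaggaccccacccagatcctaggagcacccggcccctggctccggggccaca
Col4a5 chrX:141475169-141475418, forward strand: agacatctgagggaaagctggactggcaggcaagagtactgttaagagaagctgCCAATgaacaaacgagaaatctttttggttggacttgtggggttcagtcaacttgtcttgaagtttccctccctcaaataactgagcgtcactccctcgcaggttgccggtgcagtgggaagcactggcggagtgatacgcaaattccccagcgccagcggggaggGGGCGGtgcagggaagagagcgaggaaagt
Col4a6 chrX:141474077-141474326, reverse strand: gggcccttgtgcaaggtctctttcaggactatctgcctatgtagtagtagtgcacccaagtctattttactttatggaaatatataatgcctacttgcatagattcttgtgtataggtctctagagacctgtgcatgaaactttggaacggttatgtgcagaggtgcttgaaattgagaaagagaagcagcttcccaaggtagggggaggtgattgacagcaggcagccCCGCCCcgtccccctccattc

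GGGCGG or its reverse was found in 5 of these 6 windows and in 32.7% of 32851 windows of the same length in the table. CCAAT was found in 3 of 6 and in 33.8% of all, TATAAA in 0 of 6 and 12.4%, and CACGTG in 0 of 6 and 6.02%. The upstream Col18a1 start has 3 GC box matches and the downstream start none of the 4 motifs. The G and C content of the windows was 47.6% for Col4a6 and 54% for Col4a5, and 57.6% to 64.4% for the others. A match is a string of letters only.

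Among the integrins the alpha 4 chain fell and the other 9 tested chains, Itga6 and Itgb1 included, did not pass. Of 10 tested chains 1 fell, Itga4, and none rose, which is 10% against 4.46% of all genes tested. Of the differences 5 were positive and 5 negative, with a median of 0.10. Itga4, whose pair with beta 1 binds Vcam1 and a segment of fibronectin, read 4.79, 5.21 and 3.31 in GFP positive and 6.45, 7.17 and 7.42 in GFP negative arrays. All 3 GFP negative values were higher, and GFP positive replicate 3 was under the floor. The difference was −2.57 (SE 0.50, 95% interval −3.74 to −1.40, limma adjusted p = 0.0355), or 5.95-fold. That fold rests in part on the value under the floor. With no filter on dim genes the limma adjusted p was 0.120. The other 4 Itga4 probe sets did not pass the filter; 1 of them separated the groups in the same direction (2.22 to 2.28 against 2.92 to 4.09), and another differed by 0.08 near background.

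Itga1, the alpha chain of a receptor for collagens including type IV, read 9.81, 9.60 and 9.71 in GFP positive and 9.17, 8.93 and 8.27 in GFP negative arrays. The groups did not overlap and the difference was 0.92 (SE 0.26, 95% interval 0.32 to 1.51), 1.89-fold, which did not pass (limma adjusted p = 0.104). Its second probe set separated the groups as well, by 1.22, from 6.19 to 6.52 against 4.35 to 5.68. Leaving out GFP negative replicate 3 gave 0.65, which passed (limma adjusted p = 0.0475); with any other array left out it was 0.86 to 1.11 and did not pass.

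The laminin-binding alpha chains did not pass. Itga6, the chain known from neural stem cells, read 10.72, 10.78 and 10.88 against 11.00, 11.17 and 10.27. GFP negative replicate 3 was the lowest and the other GFP negative arrays the highest, so that the difference was −0.02 (95% interval −0.63 to 0.58) with all arrays and −0.29 without that array (limma adjusted p = 0.250); it was 0.05 with arrays set to a common median. Itga3, near the floor, differed by 0.53 (limma adjusted p = 0.364) and Itga7, the laminin receptor of muscle and some glia, by −0.34 (0.776).

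Itgb1, the beta chain shared by most of these receptors, read 11.28, 10.91 and 10.89 in GFP positive and 11.52, 11.47 and 11.47 in GFP negative arrays. Every GFP negative array was higher, with an SD of 0.03 in that group, and the difference of −0.46 (SE 0.18, 95% interval −0.89 to −0.04) did not pass (limma adjusted p = 0.229), though it did with array weights (0.0476). Of its 5 probe sets above the floor 4 were negative and 1 was positive at 0.11.

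Chains that bind the Arg-Gly-Asp motif of fibronectin, vitronectin and latent growth factor did not pass either. Itgav read 13.28, 13.29 and 13.53 in GFP positive and 13.18, 13.22 and 12.98 in GFP negative arrays, without overlap. Its difference was 0.24 (95% interval −0.17 to 0.65, limma adjusted p = 0.551), and its 4 probe sets above the floor were all positive. Itgb5, a partner of alpha v, read 10.22, 10.34 and 10.04 against 8.99, 9.66 and 10.27, a difference of 0.56 (limma adjusted p = 0.433); its 4 probe sets gave 0.51 to 0.60. Itgb8, the partner of alpha v that activates latent TGF-beta in glia and neural progenitors, differed by 0.23 (−0.26 to 0.71, limma adjusted p = 0.652). Itga5, the fibronectin receptor chain, differed by −0.47 (limma adjusted p = 0.571). Of the genes that match by symbol only, Itgb1bp1, an adaptor at the tail of beta 1, differed by 0.21 and Itgb3bp, a centromere protein, by −0.07.

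**Figure D3:**
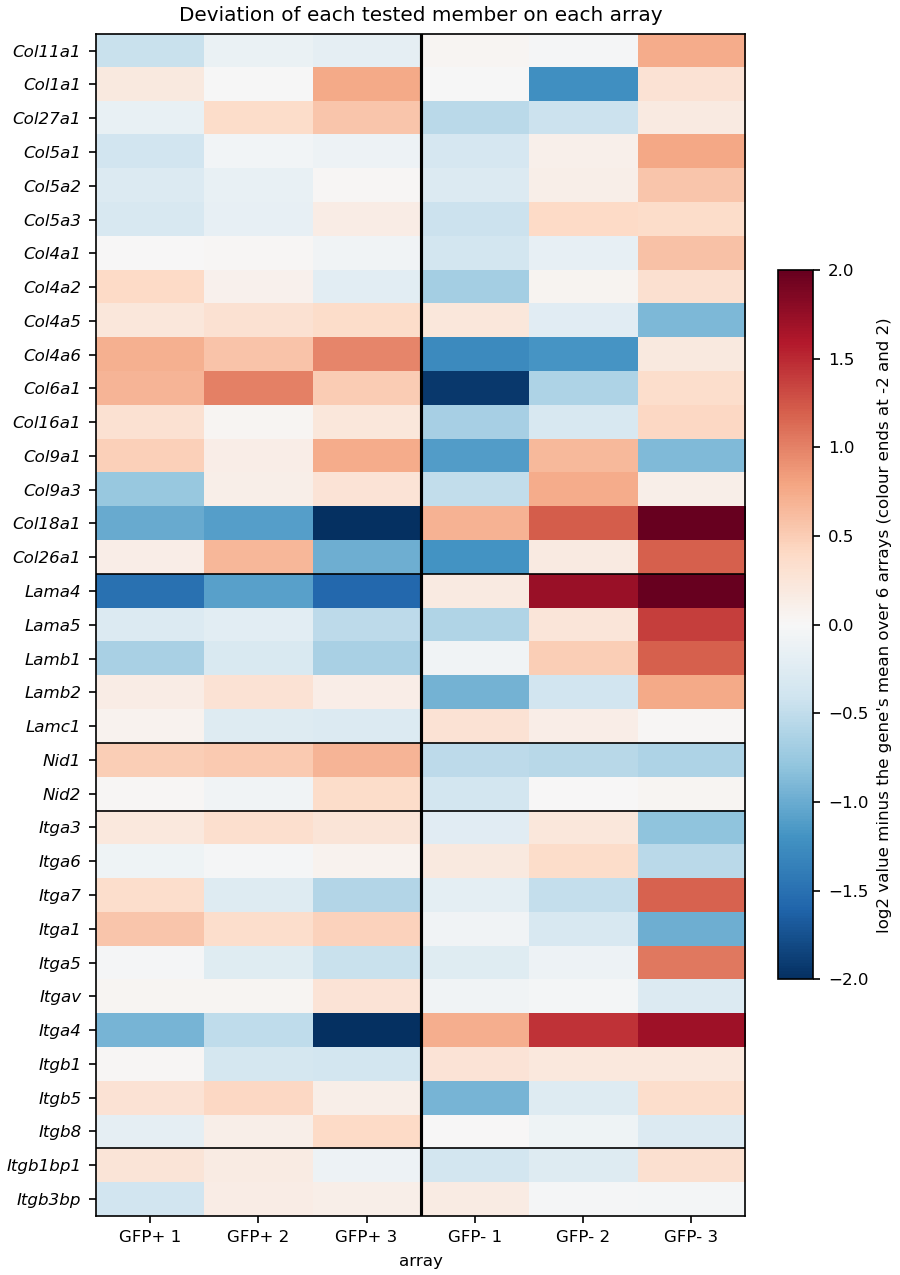
Deviation of each tested member from its own mean over the 6 arrays, in log2 units, with red for higher and blue for lower; rows are ordered by family and columns are arrays. Col18a1, Lama4 and Itga4 are blue in all GFP positive columns and red or pale red in all GFP negative ones, Nid1 is the reverse, and the column of GFP negative replicate 3 is often unlike its group, as in Lama5, Lamb2, Col4a6 and Itga6.

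Matrix chains and their receptors are set side by side here, with no test of one against the other. On the laminin side Nid1 rose and Lama4, measured above the floor in GFP negative arrays alone, passed as lower, while the receptors Itga3, Itga6, Itga7 and Itgb1 and the dystroglycan gene Dag1 (0.21, limma adjusted p = 0.624) did not pass. On the collagen side Col18a1 passed as lower with the same limit. There Itga1 and the collagen receptor tyrosine kinases Ddr1 (0.12, limma adjusted p = 0.795) and Ddr2 (−0.43, 0.415) did not pass, and Itga2 and Itga10 were not tested.

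For the alpha 4 receptor the ligand and the chain passed in opposite directions. Vcam1, an adhesion protein of quiescent subventricular stem cells and endothelium, read 10.47, 10.50 and 10.58 in GFP positive and 9.36, 9.10 and 9.33 in GFP negative arrays. It rose by 1.25 (SE 0.17, limma adjusted p = 0.0145), 2.38-fold, while Itga4 was lower. The GFP negative arrays sufficed to admit Itga4 to the test, and Itga4 did not pass with no filter on dim genes. Fn1, fibronectin, differed by −0.42 (limma adjusted p = 0.435). Npnt, nephronectin, the ligand of the alpha 8 chain, read 5.58, 6.22 and 5.09 against 6.98, 7.18 and 7.41 and fell by 1.56 on the log2 scale (limma adjusted p = 0.0347), with Itga8 under log2 4 on all arrays. Tnc, a ligand of the alpha 9 chain among others, fell as well, by 2.23 (limma adjusted p = 0.0120), and Itga9 was not tested. Tgfb3, whose latent form alpha v beta 8 binds, differed by 0.61 near the floor (limma adjusted p = 0.350), and Tgfb1 and Vtn were under log2 4 on all arrays.

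**Figure D4:**
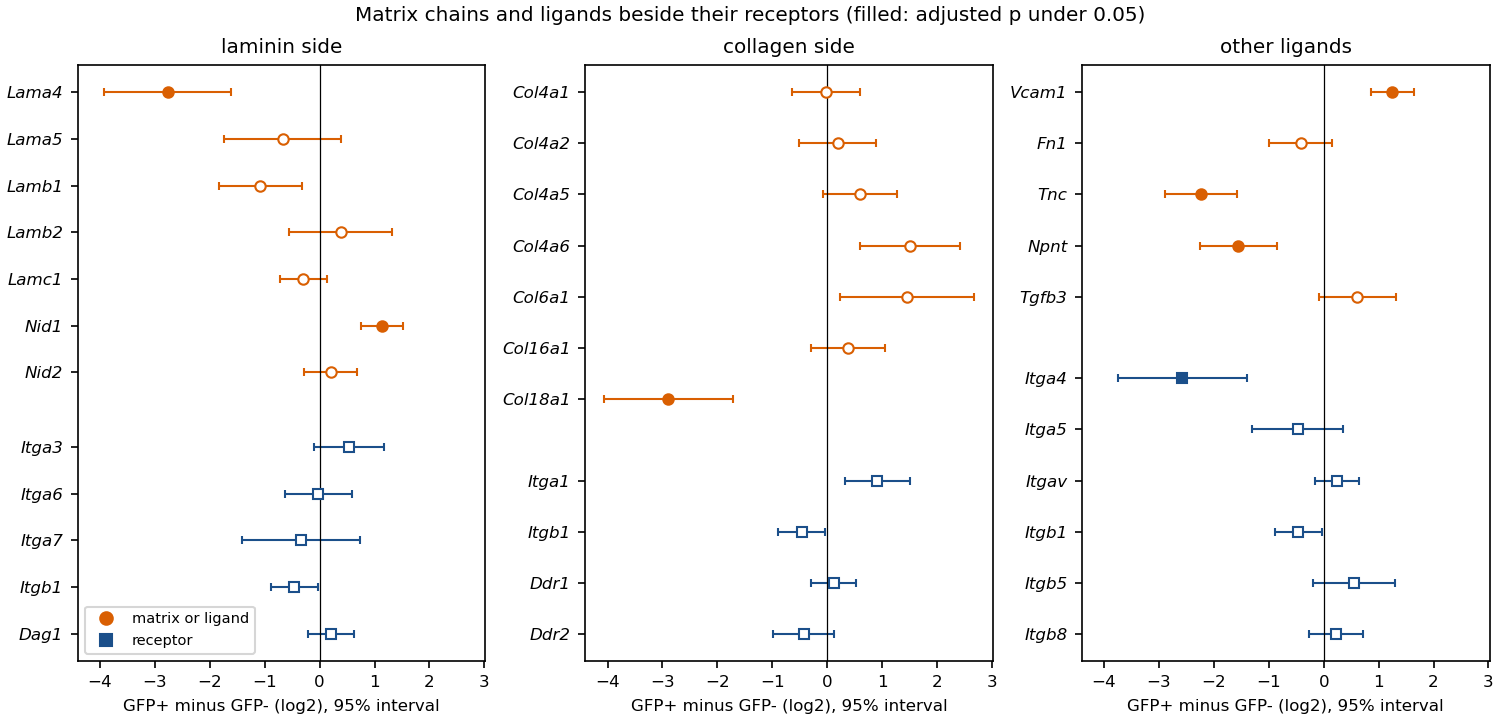
Differences between GFP positive and GFP negative cells (log2, 95% limma intervals, n = 3 arrays per group) of matrix chains and ligands (orange circles) and of receptors (blue squares), for laminins, collagens and other ligands; filled symbols have an adjusted p under 0.05. Itga4 at −2.57 is the receptor chain that passed, opposite to Vcam1 at 1.25, while the laminin and collagen receptors have open symbols. The GFP negative arrays sufficed to admit Itga4 to the test.

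Of 87 tested genes in 5 lists of the surrounding machinery 5 passed (5.75%, against 4.46% of all genes tested). Of 18 tested collagen processing enzymes and chaperones 0 passed in limma, with a median of −0.17. Before adjustment, 4 were lower and 0 higher at a limma p under 0.05, which is 22.2% against 18.2% of all genes tested. The collagen chaperone Serpinh1 differed by −0.74 (limma adjusted p = 0.0891), and the prolyl isomerase Ppib and the prolyl hydroxylase subunit P4hb by −0.16 and −0.08. Of 13 tested matrix proteases and inhibitors 0 passed in limma, with a median of 0.16. Before adjustment, 3 were higher and 0 lower at a limma p under 0.05, which is 23.1% against 18.2% of all genes tested. The protease inhibitors Timp4 and Timp3 differed by 0.68 and 0.71 (limma adjusted p = 0.0748 and 0.112), and the membrane protease Adam10 by −0.04. Of 20 tested other ligands and basement membrane genes 1 rose, Vcam1, and 2 fell, Tnc and Npnt (15%), with a median of −0.18; agrin (Agrn, 0.27) and perlecan (Hspg2, −0.52) did not pass. Of 11 tested other matrix receptors 1 fell (9.09%), Hmmr, a hyaluronan-binding protein that also acts at the mitotic spindle (−2.08, limma adjusted p = 0.0151). Of 25 tested genes of the integrin adhesion site 1 rose (4%), Tns1, tensin 1, which links beta chains to actin (7.19 ± 0.18 against 5.88 ± 0.03, SD, n = 3; limma adjusted p = 0.0139); talin 1 (Tln1, 0.01) and integrin-linked kinase (Ilk, −0.09) did not pass.

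Because Lama4, Col18a1 and Itga4 are also known from vessel walls and blood cells, markers of those cells were read on the same arrays. In bulk RNA, fewer cells of a type and less RNA per cell cannot be told apart. Of 8 endothelial markers 7 were under log2 4 on all arrays, Pecam1, Cdh5, Kdr and Cldn5 included, and Vwf reached 4.03 on GFP negative replicate 3 alone. The log2 of their summed signal was 5.42 to 5.57 on the GFP positive arrays, against 5.38 to 5.64. Of 9 microglia and macrophage markers 7 were under the floor on all arrays, and the summed level was 7.45 to 7.72 against 7.23 to 7.75. Of 9 pericyte and smooth muscle markers 6 were under it on all arrays, among them Pdgfrb and Rgs5, but the summed level was lower in GFP positive arrays, 7.23 to 7.67 against 7.91 to 9.22. In that list Acta2 differed by −1.29 and passed (limma adjusted p = 0.0413). It read 4.19, 3.92 and 3.76 in GFP positive and 4.79, 5.68 and 5.26 in GFP negative arrays. The GFP negative arrays thus sufficed to admit Acta2 to the test, and 1 GFP positive array reached the floor. Cspg4, also a marker of oligodendrocyte progenitors, differed by −1.31 and did not pass (limma adjusted p = 0.134). Cspg4 made up much of the summed level, which thus does not stand for the whole list. Of 9 fibroblast and meningeal markers 7 were under the floor, Dcn and Lum included, with a summed level of 7.39 to 7.83 against 7.79 to 8.90. That level rests mostly on the 2 tested genes, Pdgfra and Thy1. They differed by −0.54 and −0.71 and did not pass (limma adjusted p = 0.217 and 0.475), and Thy1, the brighter, overlapped between the groups. The part of all these marker lists in the lower Lama4, Col18a1 and Itga4 was not tested.

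The calls depended on which arrays were included. Leaving out 1 array at a time, Nid1 passed without GFP negative replicate 1 (limma adjusted p = 0.0353) or 3 (0.0100). Its adjusted p was 0.0878, 0.0760 and 0.0965 when GFP positive replicate 1, 2 or 3 was left out, and 0.0564 when GFP negative replicate 2 was. Its difference stayed between 1.08 and 1.17. Col18a1 and Lama4 also passed only without GFP negative replicate 1 (0.0318 and 0.0142) or 3 (0.0177 and 0.0244). Without GFP positive replicate 1, 2 or 3 the values were 0.0946, 0.0700 and 0.0991 for Col18a1 and 0.129, 0.0783 and 0.121 for Lama4, and without GFP negative replicate 2 they were 0.0820 and 0.102. Itga4 passed without GFP negative replicate 3 alone (0.0435), at 0.0501 without GFP negative replicate 1, 0.121 without 2, and 0.125, 0.0559 and 0.0799 without GFP positive replicate 1, 2 or 3. The number of genes called over the whole array moved with these fits, from 1 to 1244.

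The partner genes depended on single arrays as well. Vcam1 and Tns1 passed only without GFP negative replicate 1 (limma adjusted p = 0.0285 and 0.0312) or 3 (0.00784 and 0.00861), with values up to 0.0855 and 0.0866 elsewhere. Tnc was lost without GFP positive replicate 1 (0.0784) or 3 (0.0649), and Hmmr without these (0.0866 and 0.0633) or GFP negative replicate 2 (0.0570). Npnt passed only without GFP positive replicate 2 (0.0427) or GFP negative replicate 3 (0.0388), with up to 0.144 elsewhere, and Acta2 only without GFP negative replicate 1 (0.0334) or 3 (0.0391), with up to 0.176.

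Without GFP negative replicate 3, 5 members were higher (Nid1, Col4a6, Col6a1, Itga1 and Lamb2) and 3 lower (Col18a1, Lama4 and Itga4). In that fit 11.8% of all genes tested were called. The differences of Col4a6, Col6a1 and Lamb2 were larger without the array (1.98, 2.00 and 0.86), whereas that of Itga1 was smaller (0.65 against 0.92).

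**Figure D5:**
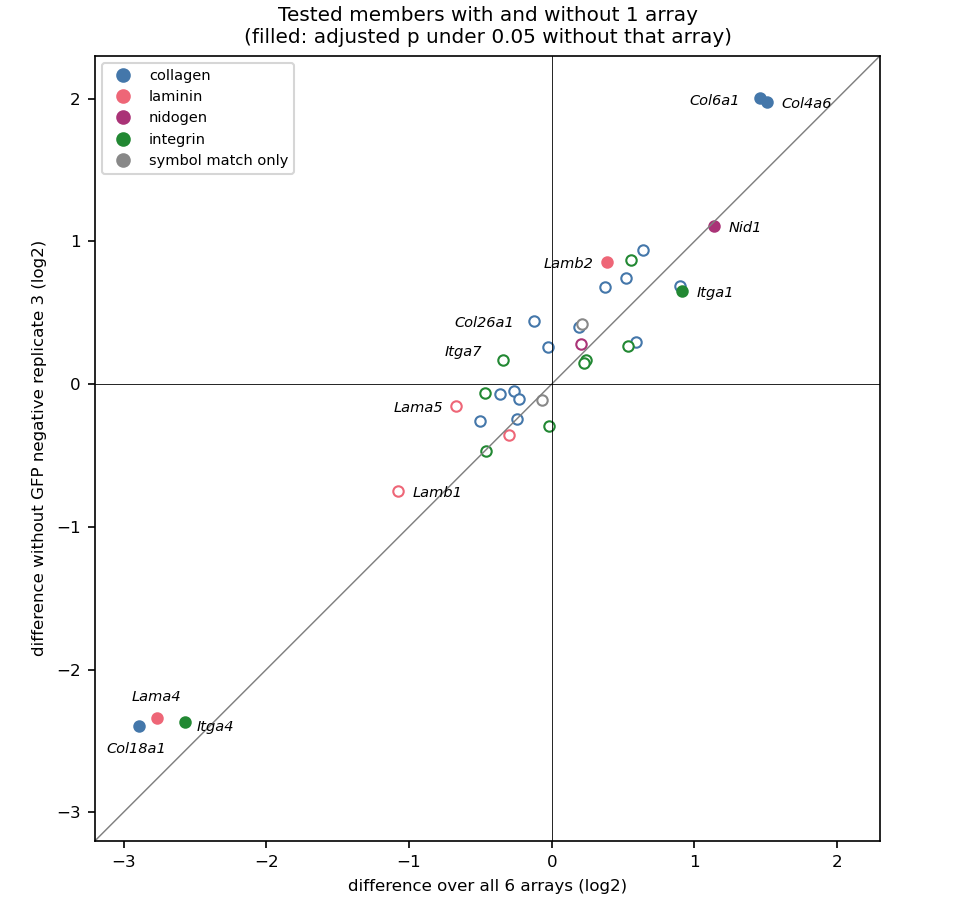
Difference of each tested member over all 6 arrays (x axis, log2) against its difference without GFP negative replicate 3 (y axis, log2), coloured by family and filled where the adjusted p was under 0.05 without that array; the grey line marks equal values. Col4a6 and Col6a1 lie above the line at 1.98 and 2.00, Nid1 is on it at 1.11, and Col18a1, Lama4 and Itga4 lie at −2.40, −2.34 and −2.37.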

How the data were processed

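Total RNA of 6 samples was hybridised to 1 array each. The authors deposited log2 values, and the submitters' processing notes name GCRMA (version not given in the sources used here). That method corrects background from probe sequence and gives arrays a common distribution, so values near the floor depend on that correction and a shift of all genes together is not seen. The 45101 probe sets were used without further normalization, and 34945 were named to exactly 1 gene by the platform annotation; all 83 members' identifiers were found in the RefSeq table with 0 changed symbols. Each gene was represented by its probe set of highest mean. Groups, taken from the sample titles, were compared by a linear model in limma 3.58.1 (R 4.3.3, eBayes, no covariate). It covered 10531 genes with at least 3 arrays at log2 4 or more, with Benjamini-Hochberg adjustment over all of them. The fit was also run on simulated data with the same SD in both groups. The groups here differ in spread, so that run does not cover the effect of unequal spread. Intervals are 95% limma intervals; 3 arrays per group limit the precision.

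Named were members past the threshold, members with a difference of 1 or more, the brightest tested member of each role, the chains of the laminin and type IV trimers with their receptors, and of each pathway list the genes past the threshold or the 2 brightest; others completing a count were chosen after their values were seen. The members and lists were chosen with earlier results of these data known. Alternatives were other filters, normalizations, probe sets, eBayes settings, array weights, a block for replicate number, each array left out and, chosen after seeing the data, the 3′ to 5′ signal as a covariate. Same-numbered arrays correlated at −0.25, 0.05 and −0.50 in their deviations from the group means. Deviations from a group mean are tied to each other, so these values cannot settle whether the numbers pair the samples.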

Additional observations from a re-analysis of the deposited data

How the results depend on the processing

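The members higher and lower (1 and 3) and the 470 genes called were recomputed under each alternative. The counts of higher and lower members were the same with quantile normalization, a common median, no cross-hybridising suffixes, and trend and robust settings. With no filter 0 members were lower in limma (6 before adjustment) and 294 genes were called. With a floor of log2 6 there was 1 lower member, Itga4, since Col18a1 and Lama4 were then not tested. At that floor Itga4 entered through the GFP negative arrays alone, with every GFP positive array under it. It thus had to differ there, and that call adds no support. With array weights 6 members were higher and 1654 genes called; the weight was 0.152 for GFP negative replicate 3 and 8.35 for GFP positive replicate 2. With the replicate number as a block 0 members were higher and 0 lower in limma, and 27 genes were called. Before adjustment 4 members were higher and 4 lower at a limma p under 0.05. Whether the numbers pair the arrays could not be settled by the check above. With the 3′ to 5′ covariate 0 members were higher, 0 lower and 9 genes called (limma; before adjustment, 6 members were higher and 3 lower at p under 0.05). The causes were not tested. The arrays whose omission left 0 called members were each GFP positive replicate and GFP negative replicate 2. Leaving out 1 array gave 0 to 5 higher members, 0 to 3 lower members and 1 to 1244 genes called. Itga4 was also lost with all probe sets (limma adjusted p = 0.0530) and with array weights (0.0573).

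A sign changed only in members that had not passed. With a common median Col4a1 was 0.044 and Itga6 0.046; with all probe sets they were 0.41 and 0.041; with array weights Col4a1 was 0.20, Col26a1 0.70 and Itgb3bp 0.047; with the 3′ to 5′ covariate Col5a3 was 0.034, Col9a3 0.22, Col26a1 0.22 and Itga6 0.11. Leaving out 1 array gave −0.22 to 0.26 for Col4a1, −0.10 to 0.40 for Col4a2, −0.55 to 0.074 for Col9a3, −0.76 to 0.44 for Col26a1, −0.29 to 0.16 for Itga6, −0.67 to 0.17 for Itga7 and −0.16 to 0.10 for Itgb3bp. The dim signal of Lama4, Col18a1 and, on 1 array, Itga4 in GFP positive cells limits their folds.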
